A study of Homo sapiens with 12 samples.

Results

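H3K27me3, the Polycomb mark of silenced chromatin, was compared gene body by gene body between SA, a derivative that the labels describe as mesenchymal and as grown out from colonies in soft agar, and DLD1, the epithelial parental line. DLD1 is an established human colorectal cancer cell line. The H3K27me3 table held 50000 genomic intervals with a read count for each line, and its lengths and positions match annotated gene bodies. Dropping 7 repeated intervals and 18619 intervals shorter than 1 kb left 31374 gene-body rows, 62.7% of those held, with a median length of 14664 bp. The series has 12 libraries, 1 for each of H3K4me3, H3K27me3 and H3K79me3 in each of SA, SPH (mesenchymal, from colonospheres), METS (epithelial, from a xenograft's lung metastasis) and DLD1. No treatment or genotype is given for any line, and all 4 were kept in serum-supplemented McCoy's 5A medium. SA is 1 derived line with 1 H3K27me3 library, so no difference below has a replicate check and none has a p-value, and the title of its libraries calls it parental as well.

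Polycomb repressive complex 2, with EZH2 or EZH1 as its catalytic subunit, places H3K27me3, and complexes of the PRC1 kind bind it through their CBX subunits. The mark lies over CpG-rich promoters of developmental regulators and over long domains that can cover whole genes. In the gut it is known at genes of other lineages, and its domains differ between cell types and tumours. H3K4me3 marks active promoters, and H3K79me3 marks the bodies of transcribed genes.

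Promoter sequences of 4 genes among the strongest differences are shown because CpG-rich DNA is known for Polycomb recruitment in mammals. HS3ST3A1 and GPC6 carried more H3K27me3 in SA, while CHSY3 and RBM47 carried less. Each is the 250 bases before the gene start on the gene's own strand, from RefSeq on GRCh38.p14, with CG dinucleotides in capitals.
HS3ST3A1: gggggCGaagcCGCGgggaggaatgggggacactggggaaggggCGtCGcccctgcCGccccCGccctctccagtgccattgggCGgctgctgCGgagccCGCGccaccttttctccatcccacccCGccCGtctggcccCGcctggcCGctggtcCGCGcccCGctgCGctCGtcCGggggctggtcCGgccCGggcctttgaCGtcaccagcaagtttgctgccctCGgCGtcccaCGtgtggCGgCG
GPC6: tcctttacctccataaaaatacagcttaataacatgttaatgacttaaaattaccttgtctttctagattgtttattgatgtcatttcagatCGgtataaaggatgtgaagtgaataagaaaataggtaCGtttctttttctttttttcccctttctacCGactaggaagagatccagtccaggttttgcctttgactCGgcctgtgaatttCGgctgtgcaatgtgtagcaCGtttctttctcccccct
CHSY3: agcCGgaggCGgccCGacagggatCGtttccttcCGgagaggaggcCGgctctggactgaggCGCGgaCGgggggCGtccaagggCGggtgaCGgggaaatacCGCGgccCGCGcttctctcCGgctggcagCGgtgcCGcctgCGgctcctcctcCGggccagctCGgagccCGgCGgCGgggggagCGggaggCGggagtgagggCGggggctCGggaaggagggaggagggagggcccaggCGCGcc
RBM47: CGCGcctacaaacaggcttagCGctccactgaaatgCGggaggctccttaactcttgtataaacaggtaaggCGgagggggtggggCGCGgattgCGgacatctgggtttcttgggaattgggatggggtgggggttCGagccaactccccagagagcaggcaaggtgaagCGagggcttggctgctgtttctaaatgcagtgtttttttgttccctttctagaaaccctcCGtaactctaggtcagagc

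The HS3ST3A1 stretch (chr17:13601930-13602179, minus strand) holds 29 CG dinucleotides, and 13.8% of the 27305 promoters in the RefSeq table hold as many or more. GPC6 (chr13:93226557-93226806, plus strand) holds 6, which 61.3% of promoters reach. CHSY3 (chr5:129904215-129904464, plus strand) holds 31, reached by 10.6%, and RBM47 (chr4:40630595-40630844, minus strand) holds 11, the median of all promoters in the table. A CpG-rich promoter thus stood on each side of the comparison. A CG reads the same on both strands, and the count is of these letters only.

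The 4 H3K27me3 libraries had 18891602 counts in SA, 20409454 in SPH, 20285444 in METS and 15605283 in DLD1 over the distinct rows. Counts were scaled to CPM, the count as a share of that total on the usual CPM scale, and, for levels, to CPM per kb of row. The median row had 0.277 CPM per kb in SA, 0.286 in SPH, 0.303 in METS and 0.317 in DLD1. The median ratio of SA to DLD1 was 0.909, or -0.14 on the log2 scale with 0.5 CPM added, and an equal level by total count therefore lies a little above the typical row. The middle of the distribution was narrow, with the 5th percentile of the log2 ratio at -0.65 and the 95th at 0.45. One row on chromosome 15 (chr15:56922379-57210769, hg19) lay between the matched genes MNS1 and TCF12 and was itself matched to no gene. It held 3.31% of all counts in SA and 3.74% in DLD1, at 114.8 against 129.7 CPM per kb. Rows of 900 to 999 bp, just under the length limit, numbered 1183 with medians of 0.587 CPM per kb in SA and 0.615 in DLD1. The 815 rows of 1000 to 1099 bp had 0.557 in SA and 0.572 in DLD1.

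Levels of the mark differed between gene classes in both lines. The 21 housekeeping genes matched to a row had a median of 0.148 CPM per kb in SA and 0.186 in DLD1. The 65 matched developmental transcription factors, textbook Polycomb targets, had 0.604 in SA and 0.685 in DLD1, and 16 immune and blood cell genes had 1.05 in SA and 1.07 in DLD1. The densest rows of 10 kb or more, after the chromosome 15 row, included CCND2-AS1, a non-coding gene beside CCND2, at 6.78 CPM per kb in SA and 6.54 in DLD1. TTC34, a gene of the tetratricopeptide repeat family, stood at 6.50 in SA and 6.35 in DLD1. The cardiac and gut regulator GATA4 had 3.16 in SA and 2.93 in DLD1. Levels at these dense genes were close in SA and DLD1.

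A row was called at a 2-fold ratio of SA to DLD1, with 0.5 CPM added to both. By this rule 110 rows were higher in SA, 0.351% of all rows, and 184 were lower, 0.586%. The balance of the directions depends on the scaling, because scaling by total leaves most rows slightly lower in SA. With TMM factors, which set the median log2 ratio at -0.01, 208 rows were higher and 88 lower, so the share of higher rows among the calls was 70.3% in place of 37.4%. Many called rows were short and thinly covered. Gene lists and the classes by density, length and chromosome are given over all rows, thinly covered ones included. Otherwise the following account keeps to the 15253 rows with 100 counts or more in SA or DLD1. Of these, 66 were higher in SA (0.433%) and 70 were lower (0.459%). The limit is on raw counts, and 1 count is 0.0529 CPM in SA but 0.0641 in DLD1. A row higher in SA therefore reached the limit at a lower CPM than a row higher in DLD1, which bears on the near-even split. All 66 higher rows also passed with TMM factors, but only 19 of the 70 lower rows did, and the counts there were 121 higher and 19 lower. TMM factors raise every ratio of SA to DLD1, so no higher row could fail and lower calls could only be lost. The interval of the ratio lay wholly past 2-fold in 32 of the 66 and in 17 of the 70. These intervals are exact Clopper-Pearson intervals at 95%, and they cover counting error only, since each line has 1 H3K27me3 library. Copies made by PCR are not marked in the counts and, where present, would make the intervals too narrow. In bulk chromatin, fewer cells with the mark and less mark per cell cannot be told apart.

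**Figure D1:**
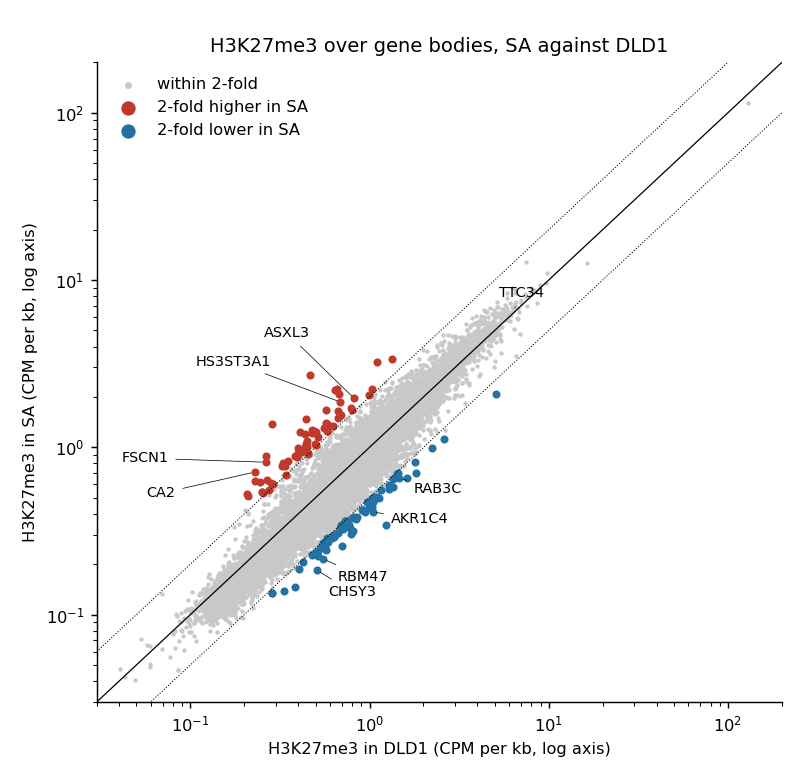
H3K27me3 density of each gene-body row with 100 counts or more in SA or DLD1, in CPM per kb on log axes, with SA on the vertical and DLD1 on the horizontal axis. The solid line is equality and the dotted lines are 2-fold; the 66 higher rows (red) and 70 lower rows (blue) flank a dense band in which most rows lie, and the single row at the upper right is the chromosome 15 row at 114.8 CPM per kb in SA and 129.7 in DLD1.

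The largest difference was on chromosome 10. A 15.9 kb row between PITRM1 and KLF6 (chr10:3529086-3545030) had 819 counts in SA, 168 in SPH, 142 in METS and 115 in DLD1. This gave 2.72 CPM per kb in SA, against 0.516 in SPH, 0.439 in METS and 0.462 in DLD1. The level in SA was 5.88-fold that in DLD1 (95% interval 4.83 to 7.21), and SA alone among the 4 lines stood high. No gene was matched to the row, and the flanking genes are 314 kb away (PITRM1, a mitochondrial peptidase) and 273 kb away (KLF6, a zinc-finger transcription factor).

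A second unmatched row, 219.3 kb long and ending 11.9 kb from PDGFD, the gene of a platelet-derived growth factor, lay at chr11:103546722-103765999. It had 5700 counts in SA, 5352 in SPH, 2200 in METS and 975 in DLD1, or 1.38, 1.20, 0.495 and 0.285 CPM per kb. The ratio of SA to DLD1 was 4.83 (4.51 to 5.17). Both mesenchymal lines were high here, METS was between, and DLD1 was lowest. PDGFC was the highest of the matched platelet-derived growth factor and receptor genes, with 0.589 CPM per kb in SA and 0.352 in DLD1. Its ratio of 1.67 (1.56 to 1.80) did not reach 2-fold. None of the 6 matched genes of platelet-derived growth factors and their receptors passed 2-fold, and their median log2 ratio was 0.05 against -0.14 for all rows.

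Heparan sulfate genes included several of the widest higher domains. Heparan sulfate chains on cell-surface and matrix proteins bind growth factors, and the glypicans are core proteins tied to the membrane by a lipid anchor. HS3ST3A1, which encodes a sulfotransferase that adds the rare 3-O-sulfate to these chains, lies at chr17:13399006-13505244. It had 3746 counts in SA, 5491 in SPH, 2462 in METS and 1137 in DLD1, or 1.87, 2.53, 1.14 and 0.686 CPM per kb. The ratio of SA to DLD1 was 2.72 (2.55 to 2.91), and all 3 derivatives stood above DLD1.

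HS3ST3A1 was part of a stretch of 1.33 Mb on chromosome 17 (chr17:12999225-14324343) in which 5 of 15 rows passed 2-fold. Of the 15 rows, 11 leaned higher in SA and 4 lower. LINC02093, a non-coding gene, had 1.25 CPM per kb in SA and 0.491 in DLD1. At the far end, a 46.9 kb row 24.7 kb from the paralogue HS3ST3B1 (chr17:14277456-14324343) had 2.23 CPM per kb in SA, 3.24 in SPH, 0.741 in METS and 0.656 in DLD1. Its ratio of SA to DLD1 was 3.40 (3.07 to 3.76), with METS at the level of DLD1. At the near end, a 5.02 kb row between ELAC2 and HS3ST3A1 (chr17:12999225-13004245) had 2.08 CPM per kb in SA and 0.676 in DLD1, a ratio of 3.07 (2.26 to 4.24).

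The glypican genes GPC5 and GPC6 lie side by side on chromosome 13 and made the longest stretch of higher rows, 3.01 Mb from chr13:92050929-95059655. All 7 rows inside it leaned higher in SA, and 6 passed 2-fold, among them the nested non-coding genes GPC5-IT1, GPC5-AS1 and GPC6-AS1. Rows nested in a gene hold reads of that gene too and are not separate evidence. GPC6 (chr13:93879095-95059655) had 22190 counts in SA, 37538 in SPH, 6031 in METS and 8021 in DLD1, or 0.995, 1.56, 0.252 and 0.435 CPM per kb. Its ratio of SA to DLD1 was 2.29 (2.23 to 2.34). GPC5 had 0.909 CPM per kb in SA, 1.15 in SPH, 0.204 in METS and 0.452 in DLD1, a ratio of 2.01 (1.97 to 2.06). Both glypicans were thus high in SA and SPH, and METS stood below DLD1. With quantile normalization GPC5 missed the call, at a log2 ratio of 0.85.

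In the whole list of heparan sulfate and glypican genes, 3 of 29 matched genes were 2-fold higher in SA and 0 were lower, beside 0.351% and 0.586% of all rows. The 3 are HS3ST3A1, GPC6 and GPC5. Earlier results of these data were known when the list was drawn up, so the count does not stand as independent evidence. The list's median log2 ratio was -0.07, against -0.14 for all rows. SDC2, a syndecan core protein, was the lowest member with a ratio of 0.625.

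Other broad higher rows covered ADGRB3, ASXL3, NOL4, MDGA2, PTPRQ and LINC00693. ADGRB3, an adhesion receptor of the brain, spans 754.1 kb and had 1.05 CPM per kb in SA, 1.24 in SPH, 0.846 in METS and 0.444 in DLD1. Its ratio of SA to DLD1 was 2.37 (2.30 to 2.45). A row of 5.07 kb that ends 0.34 kb from ADGRB3 had 1.48 CPM per kb in SA and 0.443 in DLD1, a ratio of 3.35 (2.30 to 5.00). On chromosome 18, 3 of the 4 rows of a 0.673 Mb stretch passed 2-fold, and the 4th also leaned higher. It holds ASXL3, of a family that partners the BAP1 deubiquitinase of the Polycomb system, and NOL4, expressed mainly in brain.

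ASXL3 had 1.96 CPM per kb in SA, 1.99 in SPH, 1.73 in METS and 0.821 in DLD1, a ratio of SA to DLD1 of 2.38 (2.27 to 2.50). NOL4 had 0.934 CPM per kb in SA, 0.831 in SPH, 0.796 in METS and 0.414 in DLD1, a ratio of 2.26 (2.15 to 2.36). For both genes all 3 derivatives were near each other and DLD1 was low. MDGA2, a synaptic cell-adhesion gene, had 0.538 CPM per kb in SA, 0.601 in SPH, 0.253 in METS and 0.252 in DLD1, a ratio of 2.13 (2.05 to 2.22). There the mesenchymal lines were high and the epithelial lines low.

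PTPRQ, a receptor phosphatase of inner-ear hair cells, had 1.004 CPM per kb in SA, 1.41 in SPH, 0.799 in METS and 0.448 in DLD1, a ratio of 2.24 (2.13 to 2.36). It belongs to a stretch of 0.906 Mb on chromosome 12 in which all 9 rows leaned higher in SA and 3 passed 2-fold. The third of these is a 41.7 kb row inside PPFIA2, a liprin of synapses, with 1.66 CPM per kb in SA, 2.45 in SPH, 1.31 in METS and 0.573 in DLD1 and a ratio of 2.90 (2.58 to 3.26). LINC00693, a non-coding gene on chromosome 3, had 1.01 CPM per kb in SA, 1.28 in SPH, 0.435 in METS and 0.434 in DLD1, a ratio of 2.33 (2.18 to 2.48). ZCWPW2, which lies beside it and encodes a protein with a zinc-finger CW domain, stood at 0.558 in SA and 0.276 in DLD1.

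Higher rows also covered single genes of intestinal, secretory and cytoskeletal function. CA2, a carbonic anhydrase of differentiated colonocytes, had 237 counts in SA, 215 in SPH, 71 in METS and 63 in DLD1, or 0.711, 0.597, 0.198 and 0.229 CPM per kb. Its ratio of SA to DLD1 was 3.11 (2.34 to 4.17), with SA and SPH high and METS and DLD1 low. DEFA6, a defensin of Paneth cells, rests on few reads, 54 counts in SA and 17 in DLD1, with a ratio of 2.62 (1.498 to 4.83). CA2 and DEFA6 were the 2 higher genes among 32 matched intestinal differentiation genes and none was lower, beside 0.351% higher and 0.586% lower of all rows. With 2 CPM added 1 of them passed, and the list's median log2 ratio was -0.09.

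FSCN1 encodes fascin, which bundles actin in filopodia. It had 213 counts in SA, 191 in SPH, 121 in METS and 57 in DLD1, or 0.814, 0.676, 0.431 and 0.264 CPM per kb. Its ratio of SA to DLD1 was 3.09 (2.29 to 4.21), and DLD1 was the lowest of the lines. ST8SIA4, a polysialyltransferase, had 0.510 CPM per kb in SA, 0.505 in SPH, 0.202 in METS and 0.210 in DLD1, a ratio of 2.43 (2.13 to 2.77). AGPAT4, an acyltransferase of phospholipid synthesis, had 1.04 in SA, 1.37 in SPH, 0.811 in METS and 0.503 in DLD1, a ratio of 2.06 (1.92 to 2.21). CRNDE, a long non-coding RNA named for its expression in colorectal neoplasia, had 122 counts in SA and 37 in DLD1, a ratio of 2.72 (1.87 to 4.05).

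A stretch of 0.13 Mb on chromosome 4 held the casein and histatin genes, which are expressed in milk and saliva. All 5 rows there leaned higher in SA and 4 passed 2-fold. The β-casein gene CSN2 had 1.56 CPM per kb in SA and 0.691 in DLD1, and the histatin genes HTN1 and HTN3 had 1.26 and 1.24 in SA against 0.478 and 0.505 in DLD1. HTN1 and HTN3 are near-identical copies, so the split of reads between them is uncertain.

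Of the 12 highest rows, 3 more were matched to no gene. A 20.1 kb row on chromosome 11 (chr11:41877470-41897547) beyond LRRC4C had 0.886 CPM per kb in SA, 0.722 in SPH, 0.8004 in METS and 0.265 in DLD1, a ratio of 3.34. A 3.28 kb row on chromosome 15 (chr15:93800427-93803704) had 2.21 in SA, 2.15 in SPH, 1.28 in METS and 0.645 in DLD1, a ratio of 3.43. A 7.37 kb row on chromosome 5 (chr5:116366896-116374265) had 1.24 in SA, 1.26 in SPH, 0.368 in METS and 0.409 in DLD1, a ratio of 3.02. SA and SPH were high at each of them, while METS varied.

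**Figure D2:**
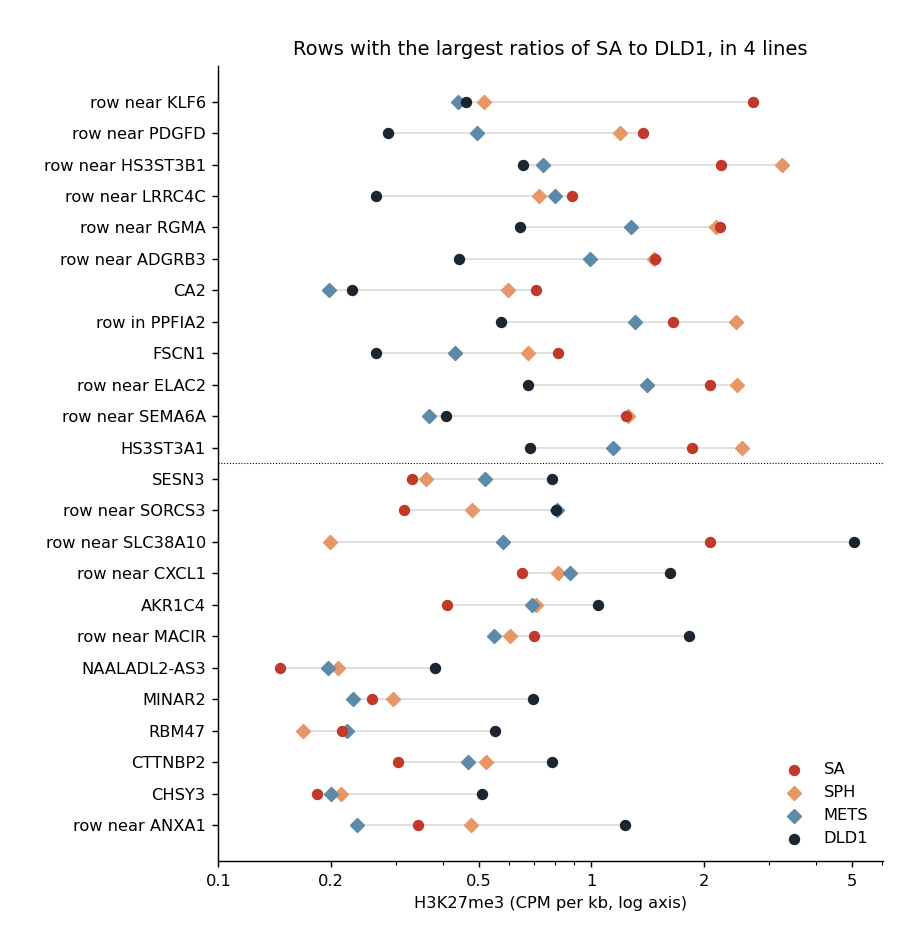
H3K27me3 density (CPM per kb, log axis) in SA, SPH, METS and DLD1 at the 12 rows with the highest (above the dotted line) and the 12 with the lowest ratio of SA to DLD1, among rows with 100 counts or more. Rows without a matched gene are named by the nearest matched coding gene; the topmost row is high in SA alone at 2.72 CPM per kb, against 0.462 in DLD1.

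The 66 higher rows fell into 43 separate places when rows less than 1 Mb apart were joined, and 12 of these places held more than a single row. Among the 66 rows, 17 were 100 kb or longer. Their median density was 1.07 CPM per kb in SA, 1.22 in SPH, 0.806 in METS and 0.445 in DLD1. The rows were chosen by the SA and DLD1 values, which are therefore a description, and the DLD1 value is shared by every comparison with it.

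The rows lower in SA were close in number by total count, but most lay near the threshold. The 70 lower rows had a median of 0.342 CPM per kb in SA, 0.359 in SPH, 0.393 in METS and 0.774 in DLD1. They fell into 51 places, 12 with more than a single row, and 22 of the 70 were 100 kb or longer. Over all 31374 rows, thinly covered ones included, none reached 4-fold lower and 3 were 4-fold higher.

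A stretch of 1.16 Mb on chromosome 2 had 2 of 14 rows past 2-fold, with 13 leaning lower and 1 higher. On chromosome 9, the called TRPM3 row spanned 0.918 Mb. The longest stretch with more than 1 called row and every row leaning lower was on chromosome 5 (chr5:128795958-129522327). In this 0.726 Mb stretch 4 of 5 rows passed 2-fold and the 5th leaned the same way. It covers ADAMTS19, a secreted metalloprotease, MINAR2, a membrane protein named for association with NOTCH2, and CHSY3, a chondroitin synthase. CHSY3 had 979 counts in SA, 1231 in SPH, 1148 in METS and 2246 in DLD1, or 0.184, 0.214, 0.201 and 0.510 CPM per kb. It was 2.78-fold lower in SA (2.58 to 2.997). MINAR2 had 0.258 CPM per kb in SA, 0.294 in SPH, 0.230 in METS and 0.697 in DLD1, 2.70-fold lower in SA (2.10 to 3.50). ADAMTS19 had 0.205 in SA and 0.424 in DLD1, 2.07-fold lower (1.92 to 2.24), and missed the call with TMM factors at a log2 ratio of -0.89. The 3 derivatives sat together at low density and DLD1 alone was high.

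RBM47, an RNA-binding splicing regulator of epithelial cells, was also highest in DLD1. It had 842 counts in SA, 714 in SPH, 931 in METS and 1789 in DLD1, or 0.215, 0.169, 0.221 and 0.552 CPM per kb, and was 2.57-fold lower in SA (2.37 to 2.80). CTTNBP2, which binds cortactin in neurons, had 0.302 CPM per kb in SA, 0.521 in SPH, 0.467 in METS and 0.783 in DLD1, 2.59-fold lower in SA (2.39 to 2.80). SESN3, a stress-induced sestrin, had 0.331 in SA, 0.361 in SPH, 0.518 in METS and 0.782 in DLD1, 2.36-fold lower (2.10 to 2.67). At these 3 genes DLD1 was the highest of the lines.

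Other broad losses covered RAB3C, a small GTPase of secretory vesicles, and CALCRL, the receptor subunit for adrenomedullin and CGRP. RAB3C had 3419 counts in SA, 3787 in SPH, 4411 in METS and 6337 in DLD1, and its density of 0.653 CPM per kb in SA was 2.24-fold below the 1.47 in DLD1 (2.15 to 2.34). CALCRL had 0.258 CPM per kb in SA, 0.234 in SPH, 0.186 in METS and 0.568 in DLD1, 2.20-fold lower in SA (1.97 to 2.46). A 271.8 kb row between AGBL1 and NTRK3 (chr15:87975289-88247083) had 0.270 in SA and 0.585 in DLD1, 2.17-fold lower (2.03 to 2.32). With TMM factors CALCRL and this row stood at a ratio of 0.506 and 0.515, just short of 2-fold.

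AKR1C4, an aldo-keto reductase of steroid and bile acid metabolism, had 182 counts in SA, 341 in SPH, 331 in METS and 381 in DLD1, or 0.410, 0.711, 0.695 and 1.04 CPM per kb. It was 2.53-fold lower in SA (2.12 to 3.04), and SA was the lowest of the 4 lines. The pseudogene AKR1C7P beside it had 0.577 CPM per kb in SA and 1.36 in DLD1. All 6 rows of this 0.166 Mb stretch on chromosome 10 leaned lower, and 3 passed 2-fold. Genes of the AKR1C family are close copies, so reads may be shared among them.

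SERPINI1, the neuroserpin gene, had 0.379 CPM per kb in SA, 0.262 in SPH, 0.267 in METS and 0.807 in DLD1, 2.13-fold lower in SA (1.93 to 2.35), within a stretch on chromosome 3 where all 6 rows leaned lower. With TMM factors its log2 ratio was -0.92 and it missed the call. The non-coding NAALADL2-AS3, also on chromosome 3, had 0.146 in SA and 0.382 in DLD1, 2.62-fold lower (2.05 to 3.36). The strongest loss was an unmatched 5.88 kb row on chromosome 9 between ANXA1 and RORB (chr9:76188531-76194414), with 38 counts in SA, 57 in SPH, 28 in METS and 113 in DLD1, which is 3.60-fold lower in SA (2.47 to 5.35). A 7.47 kb row 5.18 kb from MACIR had 0.701 CPM per kb in SA and 1.83 in DLD1, 2.60-fold lower (2.04 to 3.34). A 12.6 kb row 20.3 kb from the chemokine gene CXCL1 had 0.653 in SA and 1.63 in DLD1, 2.49-fold lower (2.05 to 3.04). In a 10.4 kb row between SORCS3 and SORCS1 SA had 0.315 and METS 0.809, level with 0.805 in DLD1.

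Genes of the epithelial-mesenchymal transition were examined because the labels class SA as mesenchymal. Of 7 matched transcription factors of this program, 1 was lower and none higher in SA, beside 0.586% lower and 0.351% higher of all rows. That gene was SNAI2, which encodes the repressor SLUG, with 32 counts in SA, 39 in SPH, 31 in METS and 68 in DLD1. It was 2.57-fold lower in SA (1.67 to 4.05), and the 3 derivatives had similar counts. With 2 CPM added it did not pass. ZEB1 had 0.529 CPM per kb in SA and 0.871 in DLD1, a ratio of 0.607 (0.574 to 0.643), and ZEB2 had 0.858 in SA and 0.581 in DLD1, a ratio of 1.48 (1.38 to 1.58). ZEB1 and ZEB2 encode related E-box repressors, their ratios lay on opposite sides of 1, and neither reached 2-fold.

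Among 21 matched mesenchymal markers 1 was lower and none higher, beside 0.586% lower and 0.351% higher of all rows. COL1A2, a chain of type I collagen, had 0.383 CPM per kb in SA, 0.428 in SPH, 0.891 in METS and 0.853 in DLD1, 2.23-fold lower in SA (1.92 to 2.60), and low in both mesenchymal lines. With TMM factors its log2 ratio was -0.98, just short of the call. VIM, the vimentin gene, had 1.79 in SA and 2.24 in DLD1, a ratio of 0.796 (0.679 to 0.932). POSTN, a matrix protein, had a ratio of 1.81 (1.56 to 2.11). The marker list had a median log2 ratio of -0.26 and the transcription factors -0.30, against -0.14 for all rows. None of 30 matched epithelial junction genes passed 2-fold, with a median log2 ratio of -0.15, and CDH1, the E-cadherin gene, was sparsely marked at 0.136 CPM per kb in SA and 0.178 in DLD1. CDH1 carried H3K79me3 in both lines, at 681.6 CPM in SA and 856.9 in DLD1, and no counted H3K79me3 region lay in VIM.

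None of 65 matched developmental transcription factors, textbook Polycomb targets, passed 2-fold by total count, and 1 was higher with TMM factors. The same held for 26 matched HOX genes, with 0 past 2-fold and 1 higher with TMM factors. Since 0.351% of all rows were higher and 0.586% lower, a count of 0 in lists of this size does not set them apart from other rows. The median log2 ratio was -0.06 for the developmental factors and -0.11 for the HOX genes. The highest HOX gene was HOXB13, a colon-expressed factor, with 63 counts in SA and 23 in DLD1, a ratio of 2.26 (1.38 to 3.82) that stayed below the call because of the added 0.5 CPM. The lowest was HOXD4, with 10 counts in SA and 21 in DLD1, 2.54-fold lower in SA, which missed the call for the same reason. SOX6 was the lowest of the developmental factors, at 0.298 CPM per kb in SA and 0.546 in DLD1. No gene of the Polycomb complexes themselves passed among 26 matched, and EZH2 had 0.111 CPM per kb in SA and 0.149 in DLD1. None passed among 58 Wnt pathway and crypt stem genes, 44 genes of the BMP, activin and TGF-β pathways, 31 cadherins and protocadherins, 41 axon guidance genes, 8 cyclin-dependent kinase inhibitors, 21 housekeeping genes or 16 immune and blood cell genes, which the same background shares cover. Without the added 0.5 CPM, a few thinly covered members of these lists lay past 2-fold. SFRP5, a secreted Wnt inhibitor, had 23 counts in SA and 8 in DLD1, and INHBB, an inhibin and activin subunit, had 32 in SA and 11 in DLD1. BAMBI, a decoy receptor of the TGF-β family, had 11 counts in SA and 22 in DLD1, and the tubulin gene TUBB had 16 in SA and 30 in DLD1. RSPO3, a Wnt-enhancing secreted protein, was the lowest of the Wnt genes with 20 counts or more, with 1139 counts in SA and 1693 in DLD1 and a ratio of 0.556 (0.515 to 0.599).

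**Figure D3:**
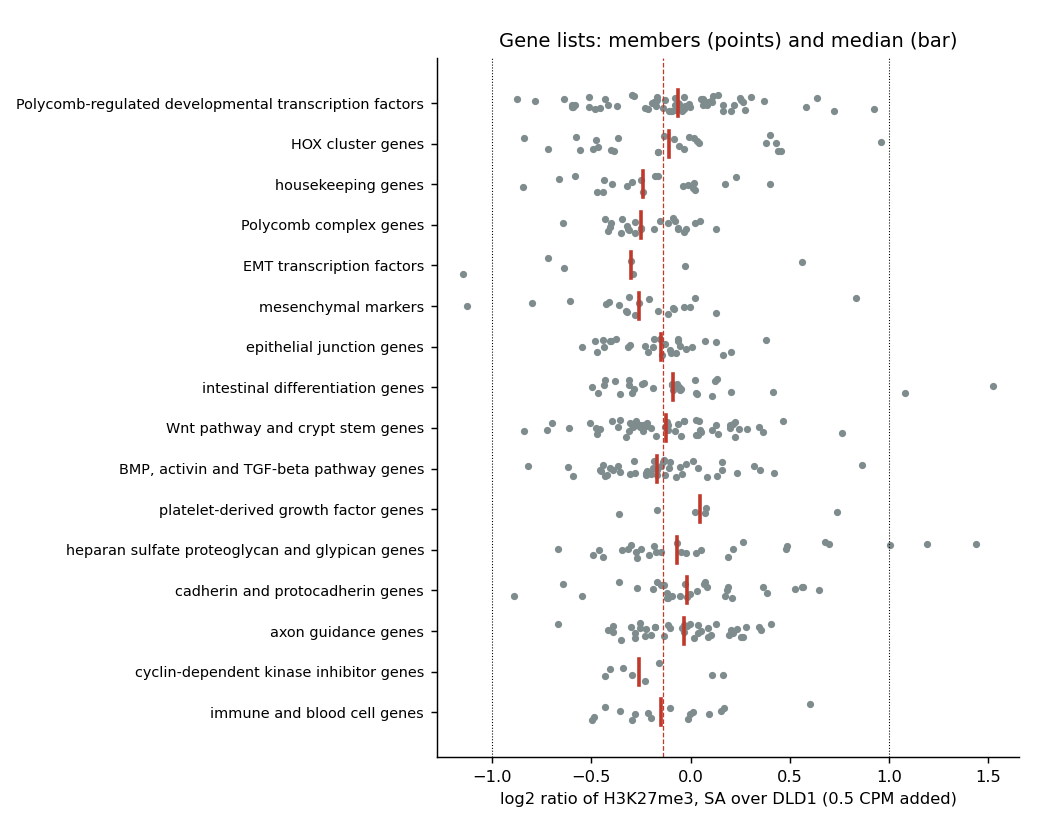
Log2 ratio of H3K27me3 in SA over DLD1, with 0.5 CPM added, for every matched gene of 16 lists (points, with vertical scatter for visibility), with each list's median as a red bar. The dashed line is the median of all rows at -0.14 and the dotted lines are 2-fold; list medians stay near the dashed line and the points past 2-fold number 3 for heparan sulfate genes, 2 for intestinal genes and 1 each for the transition factors and mesenchymal markers.

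The transcription factor gene NFIB (chr9:14081842-14398982) is an example of a gene body that differed little between SA and DLD1. It had 3197 counts in SA, 6486 in SPH, 3850 in METS and 2385 in DLD1, or 0.534, 1.002, 0.598 and 0.482 CPM per kb. The ratio of SA to DLD1 was 1.11 (1.05 to 1.17), and SPH alone stood higher. H3K79me3 over NFIB was 79.2 CPM in SA and 139.6 in DLD1, 1.76-fold lower in SA (1.59 to 1.95).

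The ratio was set out by the density of the mark in 10 classes of equal size, from class 1 with the lowest density to class 10, in 2 ways. Ordered by density in DLD1, the median log2 ratio was 0.00 in class 1, -0.23 in class 4 and 0.07 in class 10. Ordered by mean density in SPH and METS, it was -0.12 in class 1, -0.23 in class 3, 0.01 in class 9 and 0.14 in class 10. Both orders gave the highest median in class 10, and in neither did the ratio climb steadily, since class 1 stood above the classes next to it. Neither order is neutral to the ratio. A row low in DLD1 by counting error gets a higher ratio. The called rows with 100 counts or more had median SPH and METS densities on the side of SA, though single rows, such as GPC5 and GPC6 in METS, did not. The calls fell in opposite ways under the 2 orders. In class 10 by DLD1, 0 rows were 2-fold higher and 20 lower, while in class 10 by SPH and METS, 23 were higher and 2 lower. No relation between density and the calls is therefore given. The sign of these medians rests on scaling by total, under which all rows have a median of -0.14.

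**Figure D4:**
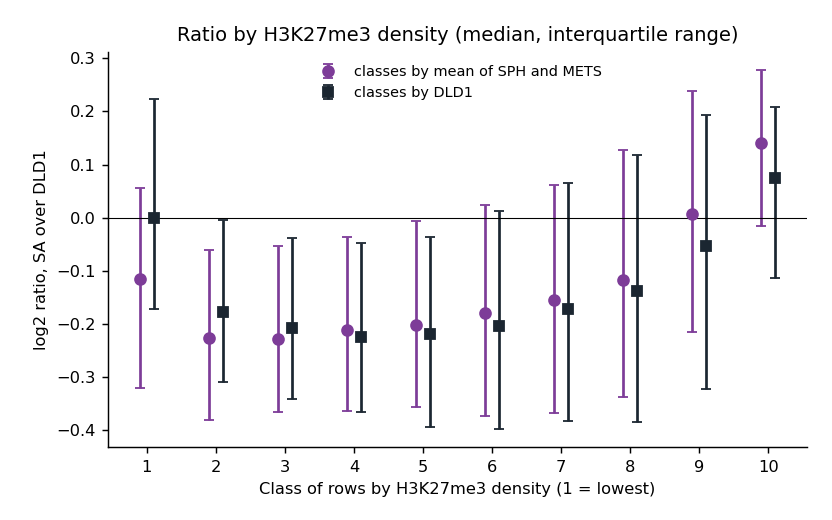
Median log2 ratio of H3K27me3 in SA over DLD1 (points) with the interquartile range over rows (bars), in 10 density classes of the 31374 rows, ordered by mean density in SPH and METS (circles) or by density in DLD1 (squares). Class 10 has the highest median in both orders, 0.14 by SPH and METS and 0.07 by DLD1.

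The ratio was also set out by row length and chromosome. The median log2 ratio was -0.06 for the 13283 rows of 1 to 10 kb, -0.17 for the 14076 of 10 to 100 kb and -0.20 for the 4015 of 100 kb or more. By chromosome the medians ran between -0.18 on chromosome 3 and -0.08 on chromosomes 18 and 19. Chromosome 13, which carries the glypican genes, stood at -0.12, and chromosome 17, which carries HS3ST3A1, at -0.12.

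H3K4me3 and H3K79me3 came from other libraries of the same lines and were not used to choose the rows. A counted H3K4me3 region lay in or within 2 kb of 13 of the 66 higher rows (19.7%) and of 24 of the 70 lower rows (34.3%), against 51.0% of all rows. H3K79me3 regions lay in 6 of the higher rows (9.09%) and 10 of the lower rows (14.3%), against 38.0% of all. Over the 9234 rows with 20 H3K79me3 counts or more, 0.249% were 2-fold higher and 1.03% were 2-fold lower for that mark, and none of the 6 rows called for H3K27me3 with such coverage (2 higher, 4 lower) was among them. The rows with large H3K27me3 differences were thus mostly without a counted region of either active mark. The shares of all rows include rows below 100 H3K27me3 counts, while the called rows do not. Rows with 100 counts or more are also longer than most, so the shares are matched neither for length nor for H3K27me3 level.

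Of the higher rows, 8 had 20 H3K4me3 counts or more in SA or DLD1, and all 8 had less H3K4me3 in SA. Their median log2 ratio was -0.55, against 0.01 over the 14876 rows with that coverage, of which 0.0336% were 2-fold higher and 1.42% were 2-fold lower. GPC5 had 23 counts in SA and 58 in DLD1, 2.97 against 8.63 CPM, which is 2.91-fold lower in SA (1.77 to 4.94). AGPAT4 had 15.1 CPM in SA, 6.01 in SPH, 11.2 in METS and 27.1 in DLD1, a ratio of SA to DLD1 of 0.557 (0.438 to 0.707). C6orf118, an open reading frame on chromosome 6, had 10.2 CPM in SA and 17.6 in DLD1, a ratio of 0.580 (0.431 to 0.778). At these genes the marks differed in opposite directions.

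The difference was smaller at FSCN1, CA2, CRNDE and ZCWPW2 than at GPC5, AGPAT4 and C6orf118. Not every higher row with this coverage is described, so no relation to the strength of H3K4me3 is drawn. FSCN1 had 53.7 CPM of H3K4me3 in SA and 70.4 in DLD1, a ratio of 0.763 (0.667 to 0.872), and CA2 had 63.3 in SA and 86.9 in DLD1, a ratio of 0.729 (0.645 to 0.823). FSCN1 also had less H3K79me3, 21.3 CPM in SA and 33.5 in DLD1, 1.57-fold lower in SA (1.28 to 1.93). It was 1 of 2 higher rows with 20 H3K79me3 counts or more. Their median log2 ratio was -0.19, and the other row leaned higher in SA. CRNDE had 130.6 CPM of H3K4me3 in SA and 143.4 in DLD1, and for ZCWPW2 the interval of the ratio, 0.854 to 1.09, spanned 1.

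No such shift was seen at the lower rows. The 23 with 20 H3K4me3 counts or more had a median log2 ratio of 0.00. CHSY3 had 103.8 CPM of H3K4me3 in SA and 104.4 in DLD1, and RBM47 had 80.9 in SA and 92.1 in DLD1. H3K79me3 over RBM47 was 286.6 CPM in SA and 280.7 in DLD1, a ratio of 1.02 (0.961 to 1.09), so the gene body carried the mark of transcribed genes in both lines while its H3K27me3 differed 2.57-fold. CTTNBP2 had more H3K4me3, 46.8 CPM in SA and 37.5 in DLD1, a ratio of 1.25 (1.06 to 1.47).

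The clearest exchange of marks was at a 6.38 kb row on chromosome 17 that was matched to no gene (chr17:79369275-79375658). H3K27me3 stood at 2.08 CPM per kb in SA, 0.1996 in SPH, 0.579 in METS and 5.06 in DLD1, 2.43-fold lower in SA (2.09 to 2.84). H3K4me3 stood at 147.5 CPM in SA, 169.2 in SPH, 149.8 in METS and 84.6 in DLD1, a ratio of SA to DLD1 of 1.74 (1.58 to 1.93). H3K79me3 stood at 117.1 CPM in SA and 60.9 in DLD1, a ratio of 1.92 (1.72 to 2.16). Here the Polycomb mark was lower in SA while both active marks were higher, though neither active mark reached 2-fold. For H3K27me3, SA lay between DLD1 and the other derivatives.

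**Figure D5:**
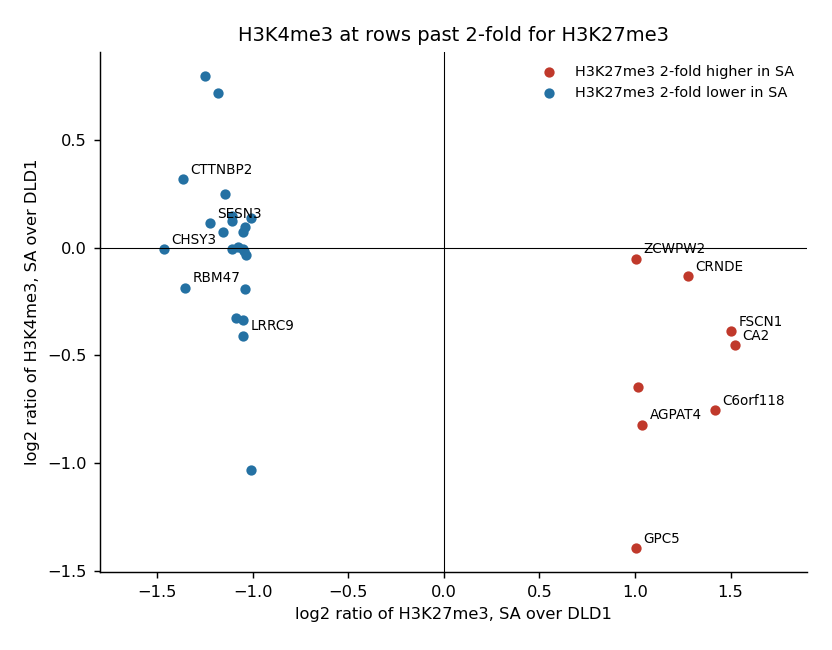
Log2 ratio of H3K4me3 against log2 ratio of H3K27me3, both SA over DLD1, for the 8 higher (red) and 23 lower (blue) H3K27me3 rows that had 20 H3K4me3 counts or more in SA or DLD1. All 8 red points lie below 0 for H3K4me3, with a median of -0.55, while the blue points lie on both sides with a median of 0.00.

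Promoter sequence was compared for the called genes. Of the coding genes with 100 counts or more, 14 of 17 higher genes and 28 of 33 lower genes had a promoter in the RefSeq table. The median number of CG dinucleotides in the 250 bases before the start was 8.5 for the higher genes, 16.5 for the lower genes and 18.0 for all 6687 such genes. At least 10 were present in 7 of the 14 higher genes, in 17 of the 28 lower genes (60.7%) and in 70.0% of all. The range within the called genes was wide, from 1 to 46 in the higher and from 0 to 45 in the lower genes, which HS3ST3A1 and GPC6 above illustrate.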

How the data were processed

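Per the labels' protocols, chromatin from sonicated nuclei was precipitated and libraries were made with a Diagenode iDeal kit. The submitters' processing notes name hg19. The aligner, counting tool and any input control are not given in the sources used here. The authors' deposited tables hold a read count per interval and line, judged from their values: whole numbers with unequal totals. The H3K27me3 table was held in part, as the file itself reports 7773 more entries left out, and it covers chromosomes 1 to 19, the last incompletely.

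Counts were divided by the total over distinct rows. The rows carry no names. Names came from RefSeq genes of GRCh38.p14 by agreement in length and spacing to neighbouring rows, and were checked against the name order of the rows: 98.4% of 13801 matched coding genes fell in order. Over all 19944 matched rows, non-coding ones included, 80.5% did. A non-coding name out of order was used only where both row ends agreed within 10 bp, so such names rest on position alone. Names were used for 17413 of 31374 rows (55.5%). A row matched to no gene can still be the body of an annotated gene, or overlap one. Row positions are hg19 as deposited and promoter positions are GRCh38.p14. Among the rows, 54.1% overlap another and share reads.

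Calls used log2 ratios with 0.5 CPM added and 2-fold. Named folds used plain CPM, with exact Clopper-Pearson intervals from SciPy. The rows described were the 12 highest and 12 lowest with 100 counts or more (overlapping rows once), the 6 highest and lowest of 100 kb or more, the 5 densest per line, list members past 2-fold or at a list's end, GPC6 and NFIB. NOL4, PTPRQ, MDGA2, ST8SIA4, AGPAT4, C6orf118, CRNDE, ZCWPW2, SERPINI1, ADAMTS19, the casein and histatin genes and other genes outside this rule were chosen after their values were seen. The members and gene lists were chosen with earlier results of these data known. The 10 density classes were set from DLD1 and, after the values were seen, from SPH and METS. The alternatives were edgeR TMM factors, DESeq2 size factors, quantile normalization, other added values, filters and thresholds, and, added after the values were seen, a total without the chromosome 15 row. No test was run, as each line has 1 library per mark. The calling step and the intervals were tested on simulated data with planted 4-fold changes and counting error alone. That test does not cover calls near 2-fold or differences between replicates.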

Additional observations from a re-analysis of the deposited data

How the results depend on the processing

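The count of 2-fold rows moved with most choices. Against 110 higher and 184 lower, TMM factors gave 208 and 88, DESeq2 size factors 209 and 87, and quantile normalization 193 and 81. Adding 0.1 CPM gave 462 and 935, and adding 2 CPM gave 46 and 40. Rows above the median CPM gave 57 and 68, rows of 10 kb or more 48 and 69, and the longest of overlapping rows 82 and 112. A 1.5-fold threshold gave 827 and 2239, and a 4-fold threshold 3 and 0. Total counts without the chromosome 15 row, chosen after seeing the data, gave 113 and 200. The share of higher calls was 37.4%, and 70.3%, 70.6% and 70.4% under the 3 other scalings, whose median log2 ratio was -0.006, -0.005 and -0.008 in place of -0.138. Chromosome medians ran between -0.045 and 0.049 with TMM factors. With TMM and DESeq2 factors alike, 1 developmental factor and 1 HOX gene were higher (none by total) and 0 mesenchymal markers were lower (1 by total). With 2 CPM added, 0 transition factors were lower and 1 intestinal gene was higher. The fewer calls under filters follow from fewer rows, and those under larger added values from damping of thin rows; otherwise the cause was not tested. The 12 highest and 12 lowest rows passed 2-fold under all 3 scalings, and none of the 70 named folds that was past 2-fold changed direction. Their size did depend on the scaling. Of the 70 named folds, 31 left their own counting interval with TMM factors, 31 with DESeq2 size factors and 10 with quantile normalization. GPC6 stood at 2.29 by total, 2.55 with TMM factors and 2.03 with quantile normalization. The printed intervals therefore do not cover the choice of scaling. Among rows with 100 counts or more, 66, 66 and 65 of the 66 higher rows and 19, 18 and 27 of the 70 lower rows passed under TMM factors, DESeq2 size factors and quantile normalization. TMM and DESeq2 factors raise every ratio of SA to DLD1, so under them no higher row, the 12 highest included, could fail. Depth limits short rows: 1 count is 0.0529 CPM in SA and 0.0641 in DLD1. No paired analysis was possible because each line has 1 library per mark and no test was run.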
